A study of Mus musculus with 26 samples.

Results

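The H3K4me3 promoter arrays of induced pluripotent (iPS) cells were compared with those of a pair of mouse embryonic fibroblast lines, MEF1 and MEF2. The comparison rests on 6 of the 26 arrays of the series: 1 set of 2 promoter arrays for the iPS line, 1 set for MEF1 and 1 set for MEF2. Other arrays of the series give the same mark in E14 and V6.5, a pair of embryonic stem (ES) cell lines (4 arrays), H3K27me3 in all 5 lines (10 arrays) and RNA in V6.5 cells, female fibroblasts and iPS cells (6 arrays). The stated purpose of the series was to ask how closely induced cells match ES cells and fibroblasts in histone marks and gene expression. MEF1 is male and MEF2 female, according to the labels of their H3K27me3 arrays. The labels give no strain, passage, reprogramming factors, selection step or sex for the iPS line, and name 1 line only. Promoter values for iPS cells therefore describe that line and carry no spread of their own. The labels list ES cell medium for all of these lines, fibroblasts included. Chromatin was precipitated with an antibody against trimethylated lysine 4 of histone H3, amplified, labelled with Cy5 and hybridised against Cy3-labelled input of the same cells.

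H3K4me3 is deposited by SET1 and MLL family methyltransferases around the start sites of active and poised genes, and CpG-rich promoters tend to carry it in most cell types. The same promoters can carry H3K27me3, set by Polycomb repressive complex 2, and promoters with both marks are called bivalent. In fibroblasts the genes of the pluripotency network are silent and genes of the extracellular matrix and contractile apparatus are active, and reprogramming exchanges these programmes.

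A promoter value is the mean log2 ratio of precipitated over input DNA over the probes within 1000 bp of the start, after the median of all non-control probes was subtracted from each array. In all, 15174 promoters were measured, with a median of 10 probes each: 14633 lay on autosomes, 533 on the X chromosome and 8 on the Y chromosome. A value of 1 or more is called marked here. By that measure 7235 promoters (47.7%) were marked in iPS cells, 7626 (50.3%) in MEF1 and 7966 (52.5%) in MEF2. Of these, 6529 were marked in all 3 lines, 433 in iPS cells and in neither fibroblast line, and 899 in both fibroblast lines but not in iPS cells. The cut lies near the median autosomal promoter of these arrays (0.853 to 1.15), so small shifts between arrays move promoters across it.

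The labels were checked against marker genes. The 8 measured promoters among 10 markers of pluripotent cells averaged 1.67 in iPS cells, -0.074 in MEF1 and -0.119 in MEF2. The 10 measured promoters among 11 fibroblast markers averaged 0.649 in iPS cells against 1.72 and 2.17 in the fibroblast lines. Both lists thus put each line where its label does. Markers of blood cells (8 of 10 promoters), endothelium (5 of 6) and skin epithelium (4 of 4) averaged between -0.887 and 0.572 in these 3 lines. The summed RNA of 9 blood markers, in units of each array's 75th percentile, was 120 and 70.3 on the fibroblast arrays and 3.003 and 3.064 on the iPS arrays, so the fibroblast RNA held more blood-cell transcripts. The mean H3K4me3 of the blood promoters was 0.029 in MEF1, -0.106 in MEF2 and 0.039 in iPS cells. The part of other cells in the differences below was not tested.

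Most promoters differed little between iPS cells and fibroblasts, and a small set differed strongly in each direction. The fibroblast lines set the yardstick: on autosomes the MEF1 to MEF2 difference had a standard deviation of 0.341, and 99% of promoters differed by less than 0.963. The iPS line lay farther than that from both fibroblast lines, in the same direction, at 199 autosomal promoters that were higher (1.36%) and 159 that were lower (1.09%). With a fixed distance of 1 log2 unit from both lines, called clear below, 190 of all promoters were higher (1.25%) and 144 lower (0.949%). By comparison, MEF1 and MEF2 differed by 1 or more at 0.813% of autosomal promoters, and MEF2 was the higher line at 117 of these and MEF1 at 2. The iPS line differed by that much from MEF1 at 2.92% and from MEF2 at 5.42%. The MEF2 arrays had the widest spread of probe ratios of the 3 lines, given below with the other differences between arrays.

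A limma fit over all 5 lines, in which the ES and fibroblast pairs supply the spread, called 89 promoters higher in iPS cells (0.587%) and 78 lower (0.514%) at an adjusted p under 0.05. Every called promoter was also clear of both fibroblast lines. The counts depend on the values and lines used. The split was 263 higher and 1328 lower with normexp background correction, 1074 and 272 with arrays scaled to a common spread, 1242 and 473 with quantile normalization, and 195 and 66 with promoters re-centred per array. None was called when the median of the probes replaced their mean (2043 had an unadjusted p under 0.05), and 23 were called higher and 29 lower from probes within 500 bp. Leaving out MEF2 left 5 higher and 1 lower, leaving out MEF1 left 24 and 25, and leaving out either ES line gave 310 and 276. With either ES line left out, the other adds no spread, so these fits equal that of the iPS and fibroblast lines alone. Without MEF1, 341 promoters were at least 1 higher than the other fibroblast line and 495 at least 1 lower. Under each of these settings no promoter called in the main fit was called in the other direction or had its difference turn sign. With a line left out this could not have happened, since every called promoter was clear of both fibroblast lines. The other settings used the same arrays.

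**Figure D1:**
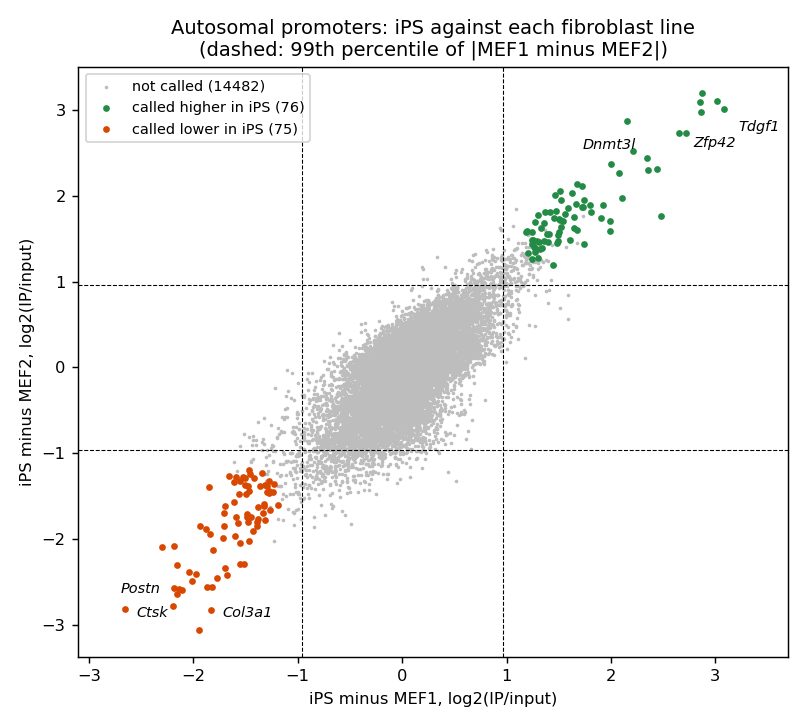
Each point is an autosomal promoter, placed by its H3K4me3 difference between iPS cells and MEF1 (x axis) and between iPS cells and MEF2 (y axis), in log2(IP/input). Dashed lines mark 0.963, the 99th percentile of the absolute MEF1 to MEF2 difference. The 76 autosomal promoters called higher and the 75 called lower lie in the upper right and lower left corners, beyond the lines on both axes.

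Genes of the pluripotency network made up the clearest group with more H3K4me3 in iPS cells. Of 33 measured promoters in this list, 11 rose and none fell, 30 lay above both fibroblast lines, and the median difference was 0.853 against 0.007 over all promoters. The 11 were Pou5f1, Zfp42, Sall4, Tcl1, Dppa4, Tdgf1, Gdf3, Nodal, Eras, Tex19.1 and Tdh. Over all autosomal promoters, the iPS value lay above MEF1 at 54.0% and above MEF2 at 47.2%, each line taken alone. On second-array autosomes, it lay above both at 36.6% of promoters marked in both lines and 56.5% of those marked in neither. The share of all promoters above both, or below both, was not counted, here or for the lists below. Lefty2, an inhibitor of Nodal signalling, was clear of both fibroblast lines without passing the test.

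Pou5f1, on chromosome 17, encodes the transcription factor Oct4. Its promoter measured -0.44 in MEF1, -0.56 in MEF2 and 2.42 in iPS cells, beside 1.93 in E14 and 2.47 in V6.5. The iPS value lay among the ES values and far above both fibroblast lines, with a difference of 2.92 ± 0.30 (limma SE, adjusted p = 0.00397). Zfp42, which encodes the zinc finger protein Rex1, measured 0.15 and 0.06 in the fibroblast lines and 2.80 in iPS cells, a difference of 2.70 ± 0.31 (limma adjusted p = 0.00633). Dppa4, a nuclear protein of pluripotent cells, measured -0.28, -0.61 and 2.59 in MEF1, MEF2 and iPS cells. Tdgf1, the co-receptor Cripto of the Nodal ligand, measured 0.09, 0.15 and 3.17. Gdf3, a ligand of the same receptor family, measured -0.28, -0.60 and 1.93. Each was taken from the called promoters, all of which were clear of both fibroblast lines, so the gap was set by that choice.

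Sequence upstream of the start is shown for a pair of these genes, because their promoters hold few CpG dinucleotides, and for Klf4, a CpG-rich promoter that carried the mark in all lines. The 200 bases before the RefSeq start (GRCm38.p6) are written 5′ to 3′ along the gene's strand, with every CpG in capitals.
Pou5f1 (chr17:35505832-35506031, plus strand): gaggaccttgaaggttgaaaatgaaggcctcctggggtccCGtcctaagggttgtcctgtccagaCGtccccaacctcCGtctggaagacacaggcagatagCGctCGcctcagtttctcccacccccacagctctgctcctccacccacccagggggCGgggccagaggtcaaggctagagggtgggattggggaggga
Zfp42 (chr8:43307010-43307209, minus strand): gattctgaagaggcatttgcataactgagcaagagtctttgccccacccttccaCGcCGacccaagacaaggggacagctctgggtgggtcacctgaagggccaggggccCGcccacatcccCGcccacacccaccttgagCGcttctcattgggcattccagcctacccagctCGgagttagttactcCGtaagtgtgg
Klf4 (chr4:55532476-55532675, minus strand): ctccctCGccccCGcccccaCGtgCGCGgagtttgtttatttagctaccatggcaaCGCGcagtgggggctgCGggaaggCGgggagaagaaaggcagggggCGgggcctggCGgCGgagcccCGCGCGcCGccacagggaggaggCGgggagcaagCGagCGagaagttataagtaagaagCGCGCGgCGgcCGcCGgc
The Pou5f1 stretch holds 6 CpGs, that of Zfp42 holds 7 and that of Klf4 holds 25. Klf4 measured 1.02 in MEF1, 1.24 in MEF2 and 1.29 in iPS cells, and its difference of 0.16 ± 0.28 (limma SE, adjusted p = 0.870) did not pass the test.

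The other factors used to induce pluripotency, Sox2, Klf4 and Myc, did not pass the test at their promoters. Sox2, a partner of Oct4, measured 0.51 and 0.52 in the fibroblast lines and 1.36 in iPS cells (difference 0.85 ± 0.32, limma adjusted p = 0.303), with RNA at least 115-fold higher. Myc measured 1.90, 2.23 and 2.23 in MEF1, MEF2 and iPS cells. Both Sox2 values for fibroblasts lay below the iPS value, whereas the Myc values of iPS cells and MEF2 were nearly equal. Esrrb, a nuclear receptor of the network, measured -0.25, -0.50 and -0.22 in MEF1, MEF2 and iPS cells, although iPS cells had at least 287-fold more of its RNA. Its annotated start on the array was thus unmarked in iPS cells and in both ES lines (-0.23 and -0.43).

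**Figure D2:**
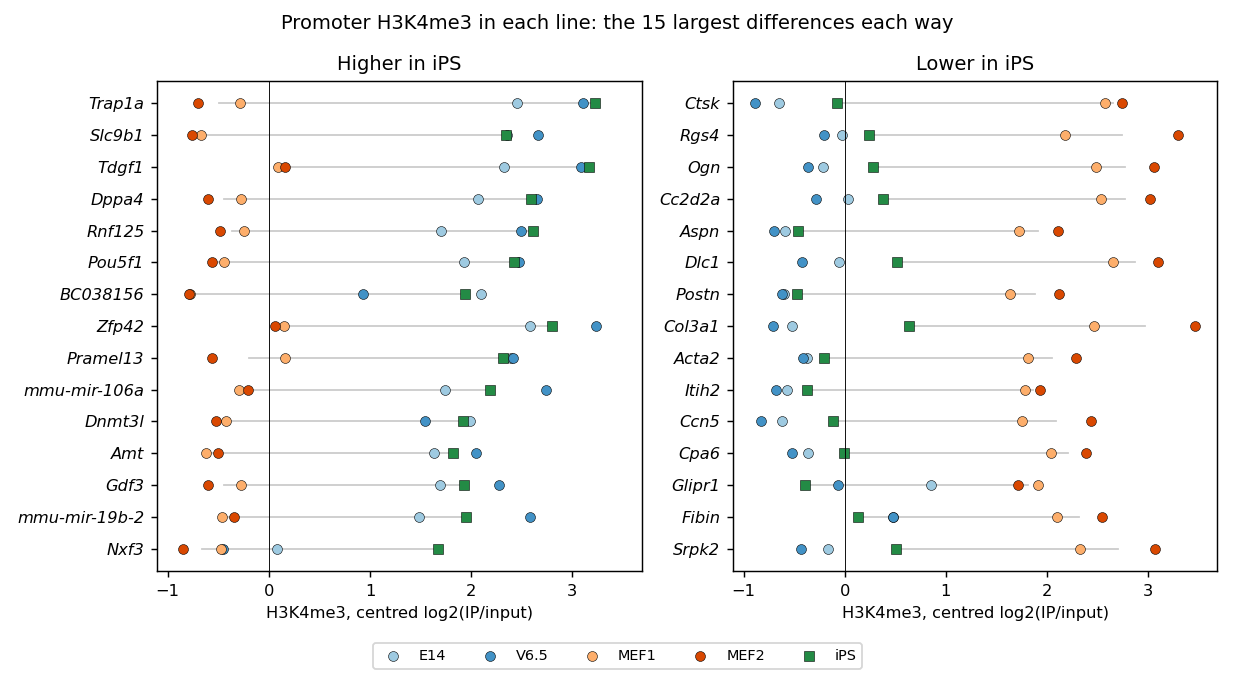
H3K4me3 (centred log2 of IP over input) is shown for each line at the 15 promoters with the largest called difference in each direction. Circles stand for the ES and fibroblast lines, squares for iPS cells, and the grey line joins the fibroblast mean to the iPS value. At each higher promoter the iPS value exceeds both fibroblast values by more than 2 log2 units, and Nxf3 is the one at which the ES lines, at 0.08 and -0.45, stay near the fibroblasts.

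Promoters outside the network list rose as strongly. The largest rise of all was at Trap1a on the X chromosome, which encodes a tumour rejection antigen: -0.29 in MEF1, -0.70 in MEF2 and 3.23 in iPS cells, a difference of 3.72 ± 0.33 (limma adjusted p = 0.00224). Slc9b1, a sodium/proton exchanger family member, measured -0.67, -0.76 and 2.35. Both were below the array median in the fibroblast lines. Rnf125, a ubiquitin ligase, rose by 2.97, Amt, an enzyme of glycine cleavage, by 2.38, and Zscan10, a zinc finger protein of ES cells, by 2.33.

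Dnmt3l, the cofactor of the de novo DNA methyltransferases, measured -0.43, -0.52 and 1.92 (difference 2.40 ± 0.28, limma adjusted p = 0.00633). Phc1, a subunit of Polycomb repressive complex 1, measured 0.37, 1.08 and 2.85 (2.12 ± 0.36, adjusted p = 0.0232). These were the 2 of 27 measured genes of DNA methylation and Polycomb complexes that rose, and none fell. The median of that list was -0.017, near that of all promoters, and its sign turned under 3 alternatives. Among 28 germ line genes, 3 rose and none fell: Zfp42, Hormad1, a protein of meiotic chromosome axes, and Sohlh2, a germ cell transcription factor. Hormad1 measured -0.92, -0.63 and 1.08, and Sohlh2 measured -0.45, -0.58 and 0.90. Asz1, of the piRNA pathway, was clear of both fibroblast lines at 0.34 against -0.87 and -0.80, with a limma adjusted p of 0.0626. The list's median was 0.654 and 27 of the 28 promoters lay above both fibroblast lines.

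Among 22 epithelial junction genes and their regulators, 1 rose and none fell, with a median of 0.592 and 19 above both fibroblast lines. The gene was Grhl2, a transcription factor of epithelia, at 0.03 in MEF1, 0.43 in MEF2 and 2.03 in iPS cells (difference 1.79 ± 0.29, limma adjusted p = 0.0202). Cldn4, a tight junction claudin, was clear of both lines at 1.19 against 0.01 and -0.26. Cdh1, which encodes E-cadherin, measured 0.50 and 0.65 in fibroblasts and 1.48 in iPS cells, and Epcam measured 0.43, 0.58 and 1.41. Neither passed the test (limma adjusted p = 0.244 and 0.192), although RNA of both was higher in iPS cells, 27.9-fold for Cdh1 and at least 18.5-fold for Epcam, which was above background on 1 of the 2 fibroblast arrays.

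MicroRNA promoters were among the calls in both directions. Of 127 measured, 3 rose and 1 fell in limma, beside 0.587% and 0.514% of all promoters. Another count gave 6 clear and higher and 3 clear and lower, beside 1.25% and 0.949% of all promoters. These counts are too small to set microRNA promoters apart from the rest. The higher ones include mmu-mir-106a (-0.29 in MEF1, -0.21 in MEF2, 2.19 in iPS cells, difference 2.44 ± 0.37, limma adjusted p = 0.0168) and mmu-mir-19b-2 (-0.46, -0.34 and 1.95). These starts lie in 1 cluster on the X chromosome with overlapping probe windows, so they are not independent. The third was mmu-mir-135b at -0.16, -0.32 and 1.56. The promoter that fell was Mir21a, at 2.52 in MEF1, 2.99 in MEF2 and 1.13 in iPS cells (-1.62 ± 0.33, limma adjusted p = 0.0453). The mature sequences of the X cluster and of Mir21a, from RefSeq (GRCm38.p6), are given with the seed, bases 2 to 8, in capitals. That of mmu-mir-135b is not shown.
mmu-miR-106a-5p: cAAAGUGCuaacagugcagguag
mmu-miR-20b-5p: cAAAGUGCucauagugcagguag
mmu-miR-18b-5p: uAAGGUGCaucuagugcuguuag
mmu-miR-19b-3p: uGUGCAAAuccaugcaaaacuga
mmu-miR-92a-3p: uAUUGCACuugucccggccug
mmu-miR-363-3p: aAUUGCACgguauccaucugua
mmu-miR-21a-5p: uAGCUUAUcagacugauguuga
The first 6 come from the cluster on the X chromosome. Among them miR-106a-5p and miR-20b-5p share the seed AAAGUGC, and miR-92a-3p and miR-363-3p share AUUGCAC. RNA of the mature forms was not measured on these arrays.

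Genes of the extracellular matrix formed the main group with less H3K4me3 in iPS cells. Of 44 measured promoters of collagens and other matrix genes, 8 fell and none rose, 34 lay below both fibroblast lines, and the median difference was -0.609. The 8 were Col1a1, Col3a1, Col5a2, Ogn, Omd, Aspn, Postn and Ctsk. Col1a2, Col6a1, Thbs2 and Mgp were clear of both fibroblast lines without passing the test.

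Ctsk, which encodes the matrix protease cathepsin K, had the largest fall of all. It measured 2.57 in MEF1, 2.74 in MEF2 and -0.08 in iPS cells, beside -0.65 and -0.89 in the ES lines, a difference of -2.74 ± 0.27 (limma adjusted p = 0.00397). Postn, which encodes the matrix protein periostin, measured 1.64, 2.12 and -0.47 (difference -2.35 ± 0.29, adjusted p = 0.00663). Col3a1, a fibrillar collagen, measured 2.47, 3.47 and 0.64 (-2.33 ± 0.37, adjusted p = 0.0198). The fibroblast values for Col3a1 differed from each other by more than the yardstick, and both lay far above the iPS value. Ogn and Aspn, small leucine-rich proteoglycans, fell by 2.49 and 2.38 on the log2 scale. Ogn, Omd, Aspn and Ecm2 lie near each other on chromosome 13 and all 4 fell.

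Sequence upstream of the start is shown for Postn, Col3a1 and Ctsk, whose promoters were marked in fibroblasts with few or no CpGs. The stretch is again the 200 bases before the RefSeq start (GRCm38.p6), with each CpG in capitals.
Postn (chr3:54360907-54361106, plus strand): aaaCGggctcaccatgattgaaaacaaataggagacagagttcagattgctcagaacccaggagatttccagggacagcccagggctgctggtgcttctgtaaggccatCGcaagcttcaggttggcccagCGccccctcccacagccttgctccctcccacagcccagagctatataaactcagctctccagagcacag
Col3a1 (chr1:45311338-45311537, plus strand): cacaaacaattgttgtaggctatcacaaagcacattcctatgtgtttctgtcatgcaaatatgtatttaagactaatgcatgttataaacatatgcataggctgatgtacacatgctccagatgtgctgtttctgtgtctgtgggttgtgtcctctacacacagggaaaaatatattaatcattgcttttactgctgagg
Ctsk (chr3:95499010-95499209, plus strand): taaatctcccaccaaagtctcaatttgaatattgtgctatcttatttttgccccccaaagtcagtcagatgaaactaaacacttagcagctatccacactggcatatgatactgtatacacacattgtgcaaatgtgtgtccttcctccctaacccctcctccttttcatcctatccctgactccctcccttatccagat
The Postn stretch holds 3 CpGs and those of Col3a1 and Ctsk hold 0. In Postn a TATAAA match begins 26 bases before the start.

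Other fibroblast groups moved the same way with fewer calls. Of 22 contractile genes 3 fell and none rose (median -0.699): Acta2, the smooth muscle actin (1.81, 2.29 and -0.20 in MEF1, MEF2 and iPS cells), Lmod1, an actin nucleator, and Anxa1, a phospholipid-binding annexin. Of 27 surface receptors of fibroblasts 4 fell and none rose (median -0.297): Cd44, the hyaluronan receptor, Fap, the fibroblast activation protease, Il1rl1, an interleukin receptor, and Tnfrsf11b, the decoy receptor osteoprotegerin. Fap measured 2.00, 1.91 and 0.07. Eng, the TGF-beta co-receptor endoglin, went the other way, at 0.57 and 0.68 in fibroblasts and 1.69 in iPS cells, without passing the test (limma adjusted p = 0.109). Of 34 mesenchymal transcription factors 1 fell and none rose, Runx2, the osteoblast regulator, at 1.82, 1.96 and 0.11 (-1.78 ± 0.27, limma adjusted p = 0.0173).

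Prrx1 and Zeb2, of the mesenchymal list, stayed marked in iPS cells, at lower values than in either fibroblast line. Prrx1, a homeobox factor of limb mesenchyme, measured 2.70 and 3.72 in the fibroblast lines and 1.86 in iPS cells (limma adjusted p = 0.134). Zeb2, a repressor of E-cadherin, measured 2.19, 2.50 and 1.38. The RNA of both fell, to a level 101-fold lower for Prrx1 and at least 47.0-fold lower for Zeb2, and H3K27me3 at these starts was 2.42 and 2.32 in iPS cells against values between -0.758 and -0.363 in fibroblasts. Both promoters were thus above 1 for both marks in iPS cells. Twist2, of the same list, measured 1.37, 1.60 and 0.67 in MEF1, MEF2 and iPS cells and was not marked in iPS cells.

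Signalling and defence genes gave a few calls. Of 21 interferon response genes 2 fell and none rose: Irf7, a transcription factor of the response (2.10, 2.40 and 0.78), and Gbp2, a guanylate-binding protein (1.81, 2.37 and 0.34). Oas2, an oligoadenylate synthetase of the same list, was clear and higher at -0.58, -0.83 and 0.44 without passing the test (limma adjusted p = 0.0827). Of 22 acute phase and chemokine genes 1 fell, the chemokine Ccl7 (1.20, 1.43 and -0.29, limma adjusted p = 0.0214). Outside the lists, Fgf7, a growth factor for epithelial cells, fell from 2.42 and 3.17 to 0.74, and Inhba, the activin A subunit, fell from 2.34 and 2.67 to 0.54. Esr1, the oestrogen receptor, measured 1.94, 2.04 and 0.10, and Vcam1, an adhesion receptor, 1.89, 2.26 and 0.29.

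Many lists held no promoter that passed the test in either direction. They were Hox genes (31 measured, median -0.175), neural lineage regulators (35, median 0.243), endoderm and mesoderm regulators (32, median 0.420), extraembryonic lineage genes (25, median 0.318), imprinted genes (21, median 0.137), DNA replication and mitosis genes (23, median 0.094), blood markers (19, median -0.020), keratinocyte markers (11, median 0.332), endothelial markers (14, median 0.522) and housekeeping genes (22, median 0.170). The 19 measured cell cycle brakes and p53 targets held no call either, with a median of -0.162. A list without a call is not thereby unchanged, since the smallest difference called in the main fit was 1.258. In simulated data the fit recovered 0% of promoters moved by 1 log2 unit and 48% of those moved by 2. Members of these lists that were clear of both fibroblast lines without passing the test were Olig2, a neural factor (0.22, 0.49 and 1.69 in MEF1, MEF2 and iPS cells), Neurog3 (-0.28, -0.32 and 0.90), Esx1 on the X chromosome (0.59, 0.64 and 1.70) and Perp, a p53 target (0.45, 0.73 and 1.75). Tek, an endothelial receptor kinase, had a difference of 1.28 but was not clear of MEF1 (0.21, -0.47 and 1.15, limma adjusted p = 0.101). Eng, also in the endothelial list, is described above. Differences of Hox genes ran from -0.89 at Hoxa9 (1.90, 1.99 and 1.05, limma adjusted p = 0.155) to 1.13 at Hoxc12 (-0.03, 0.46 and 1.35, adjusted p = 0.104). The medians of the Hox, cell cycle, DNA replication, imprinted, blood and housekeeping lists changed sign under at least 1 alternative setting, for Hox genes to 0.085 with arrays scaled to a common spread and 0.056 with quantile normalization.

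The difference was largest in the 1000 bp after the start. At promoters called higher, iPS cells averaged 1.87 in the bin from 500 to 1000 bp after the start, where MEF1 averaged -0.26 and MEF2 -0.41. In the bin from 5000 to 5500 bp upstream the averages were -0.03, -0.47 and -0.64, so a gap to the fibroblasts was present there too. At promoters called lower, fibroblasts averaged 2.14 (MEF1) and 2.51 (MEF2) in the bin from 500 to 1000 bp and 1.19 and 1.41 in the bin from 2000 to 2500 bp, whereas iPS cells averaged 0.38 and -0.14. Probes within 1000 bp chose these promoters, so the profile there is a description. At Pou5f1, 11 probes were used, and the iPS minus fibroblast difference ranged from 0.367 at 976 bp before the array's start to 5.08 at 818 bp after it. At Postn, the range over 11 probes was from -4.18 at 950 bp after the start to -0.200 at 76 bp before it, and the probe 76 bp after it gave -0.454. At these 2 probes fibroblasts measured between -0.15 and 0.17, below their values at the other probes.

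**Figure D3:**
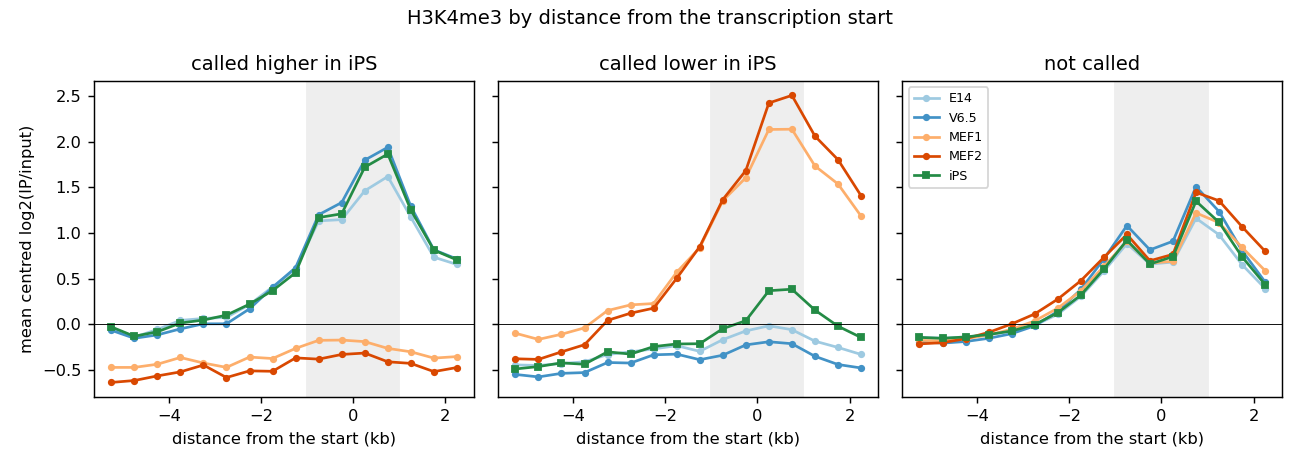
Mean H3K4me3 (centred log2 of IP over input) in bins of 500 bp is drawn against distance from the start, in kb, for promoters called higher, called lower and not called, with 1 line per cell line. The grey band marks the 1000 bp on each side from which promoter values were taken. In the first panel iPS cells run with the ES lines, and in the second they run at 0.38 in the bin from 500 to 1000 bp where MEF2 reaches 2.51.

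H3K27me3 was measured on separate arrays of the same lines. Its median difference between iPS cells and fibroblasts was 0.022 at the promoters called higher for H3K4me3, 0.552 at those called lower and 0.053 at the rest. By list it was -0.549 for pluripotency genes, 0.481 for germ line genes, 0.540 for matrix genes, 0.508 for contractile genes and 0.690 for fibroblast receptors. The medians thus ran opposite to H3K4me3 in all of these lists but the germ line genes. A limma fit called no promoter for H3K27me3 in either direction (0%), with 3063 at an unadjusted p under 0.05. At 1 log2 unit from both fibroblast lines, 324 promoters were higher in iPS cells (2.14%) and 23 lower (0.152%). Among the 89 promoters called higher for H3K4me3, 20 had H3K27me3 of at least 1 in both fibroblast lines and 14 in iPS cells, and 57 were below 1 in all 3 lines. Of all promoters, 6.44% had H3K27me3 of at least 1 in both fibroblast lines and 8.75% in iPS cells. H3K27me3 was clear and lower in iPS cells at 6 of the 89, namely Tdgf1, Sall4, Ooep, Mpzl2, mmu-mir-106a and mmu-mir-19b-2, and clear and higher at 1, H2ac1. At Tdgf1 it measured 1.96 in MEF1, 2.62 in MEF2 and 0.80 in iPS cells. At Pou5f1 it measured 0.74, 0.80 and 0.13, and at Trap1a, Zfp42 and Dppa4 it was below 0 in all 3 lines.

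Among the 78 promoters called lower, none had H3K27me3 of at least 1 in both fibroblast lines, 6 reached 1 in iPS cells and 72 were below 1 in all 3 lines. H3K27me3 was clear and higher in iPS cells at 12: Ccdc80, Cd44, Col1a1, Dlc1, Eif4e3, Fap, Inhba, Irf7, Itih2, Lmod1, Slc9a9 and Tnfrsf11b. At Inhba it measured -0.23, -0.83 and 1.69 in MEF1, MEF2 and iPS cells, and at Col1a1 -0.05, -0.82 and 1.21. At Ogn, Aspn, Ctsk and Col3a1 it stayed below 0 in all 3 lines.

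RNA moved with the promoters in most called genes. On the expression arrays, 1977 of 11213 genes with a promoter value were higher in iPS cells than in fibroblasts (17.6%) and 1880 were lower (16.8%), at a limma adjusted p under 0.05 and at least 2-fold. Of 66 genes tested among the 89 higher promoters, RNA of 38 rose and of none fell. Of 62 tested among the 78 lower promoters, RNA of 53 fell and of 2 rose. Where a probe was not well above background on an array of the dimmer group, that array was set to its lowest signal above background and the fold is given as a lower bound. RNA was higher by at least 106-fold for Pou5f1, 331-fold for Zfp42 and 64.6-fold for Dppa4, each above background on 1 of the 2 fibroblast arrays. For Trap1a, above background on neither, it was at least 326-fold higher. RNA of Fibin was 273-fold lower, of Postn 163-fold and of Col3a1 72.7-fold. Fibin, a secreted factor, measured 2.10 and 2.54 for H3K4me3 in fibroblasts and 0.13 in iPS cells. Tex19.1, a germ cell gene, and Abi3bp, a matrix protein gene, also combined a called promoter, H3K27me3 below 1 in all 3 lines and a large RNA difference (at least 788-fold higher and at least 72.3-fold lower). Lum, which encodes the matrix proteoglycan lumican, had RNA at least 732-fold lower in iPS cells while its annotated start measured 0.23, -0.02 and -0.10 for H3K4me3 in MEF1, MEF2 and iPS cells. Over all 17343 genes tested on these arrays, 2904 were higher and 2916 lower. Those counts became 4921 and 4878 without MEF array 1, 4694 and 4039 without MEF array 2, 1033 and 1715 without iPS array 1, and 1034 and 1610 without iPS array 2. The RNA arrays held female fibroblasts and 2 arrays per cell type that the labels call duplicates, so their p-values measure the spread between those arrays. The scanner files of ES cells and fibroblasts are exchanged relative to the deposited value table, which was followed here. The scanner file of the second iPS array holds fewer spots than the others and equals no column of that table, so background flags for iPS cells come from the first iPS array. In that table the summed RNA of 10 pluripotent markers was 225 and 200 in the ES columns, 0.989 and 3.36 in the fibroblast columns and 211 and 200 in the iPS columns.

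Calls were far more numerous for RNA than for promoters, each by its own test. Of the 1977 genes with higher RNA, 1194 (60.4%) had promoters marked in both fibroblast lines and in iPS cells alike, and 70 (3.54%) had a promoter clear and higher. Of the 1880 with lower RNA, 686 (36.5%) were marked in all 3 lines and 86 (4.57%) had a promoter clear and lower. The median promoter difference rose in steps with the RNA difference, from -0.31 in the 135 genes with the largest RNA decrease (over 6 log2 units) to 0.85 in the 55 genes with the largest increase. In the latter bin 36.4% of promoters were clear and higher. Mcm5, a replication helicase subunit, had 32.5-fold higher RNA with promoter values of 2.14, 2.67 and 2.68 in MEF1, MEF2 and iPS cells.

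**Figure D4:**
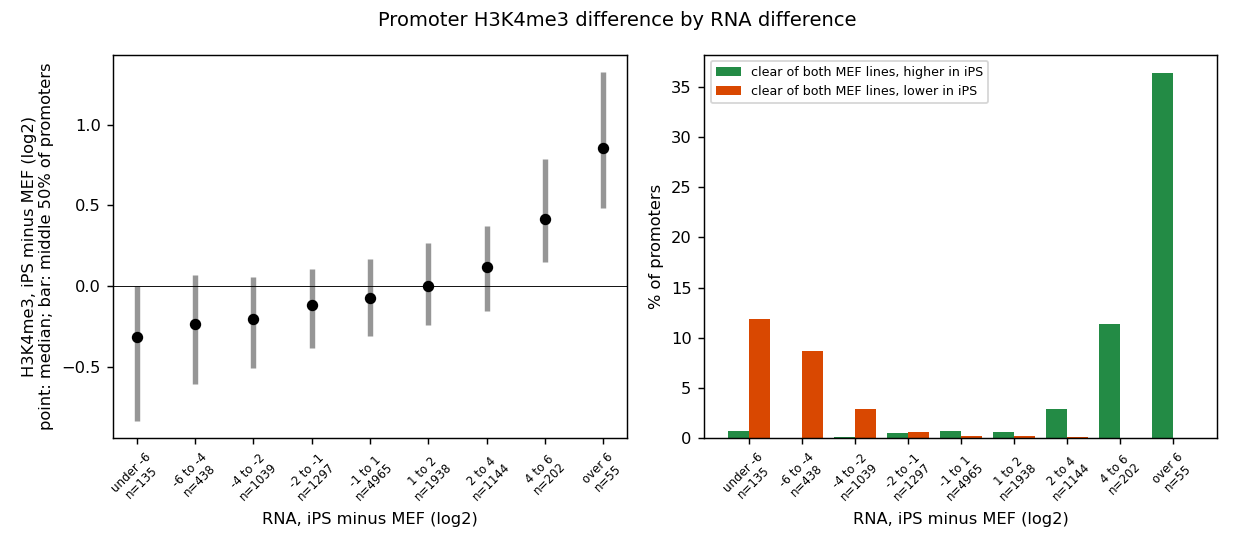
Genes are grouped by their RNA difference between iPS cells and fibroblasts (log2, with the number of genes per bin). The left panel gives the median H3K4me3 difference (point) and the middle 50% of promoters (bar), and the right panel gives the percentage of promoters clear of both fibroblast lines in each direction. The median runs from -0.31 to 0.85 and the share of clear, higher promoters reaches 36.4% in the last bin.

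A few genes had promoter and RNA differences in opposite directions. RNA of Gbp2 and Plaur, the urokinase receptor, was higher in iPS cells (2.83-fold and 4.60-fold) while their promoters fell. Plaur measured 1.82, 2.09 and 0.50 for H3K4me3. Wdr31 (clear and lower, 1.74, 1.96 and 0.57) had 6.94-fold higher RNA. Egfl6 on the X chromosome was clear and higher at 0.09, -0.21 and 1.17, and its RNA was at least 63.1-fold lower. For Cc2d2a, a gene of the ciliary transition zone, Dlc1 and Srpk2, a splicing factor kinase, promoters fell by 2.40, 2.36 and 2.19 on the log2 scale and RNA passed no call. Adipor2 and Lrmp had promoters that rose by 1.91 and 1.85 and had RNA folds of 1.03 and 1.02. Genes with several start sites are measured here at the start annotated on the array only.

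Base composition is described for the called promoters. A RefSeq window of 300 bases around the start could be matched for 52 of the 89 higher and 51 of the 78 lower promoters, and for 10128 promoters in all. The median observed over expected CpG ratio was 0.461 for the higher promoters, 0.247 for the lower ones and 0.679 over all. A ratio of at least 0.6 was found in 13 of 52 higher windows, 1 of 51 lower windows and 57.7% of all windows. Among 4153 promoters below 1 in both fibroblast lines and not clear and higher in iPS cells, 1066 (25.7%) reached that ratio, and their median GC content was 53.7% beside 53.8% at the higher promoters. Promoters marked in both fibroblast lines that were not lower had a median of 0.804, and those 4153 had 0.306. The E-box CACCTG occurred on either strand in 40.4% of higher, 7.84% of lower and 19.2% of all windows. TATAAA occurred in 15.4%, 25.5% and 11.3%, GGGCGG in 30.8%, 13.7% and 54.6%, the octamer ATGCAAAT in 7.69%, 5.88% and 1.64%, and TGANTCA in 7.69%, 11.8% and 6.43%. In the 4153 promoters, the shares were 23.9% for the E-box CACCTG, 17.9% for the motif TATAAA, 34.7% for the motif GGGCGG, 2.07% for the octamer and 9.08% for the motif TGANTCA. GC-rich motifs occur more often in CpG-rich windows, and a match is a description of letters, not of binding.

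At most, but not all, promoters clear of both fibroblast lines, the iPS value lay within 1 log2 unit of both ES lines. The ES arrays are shown beside the iPS values and share the same spread estimate. At the 190 clear and higher promoters, iPS cells lay within 1 log2 unit of both ES lines at 183, and at the 144 clear and lower promoters at 130. The share within 1 of both ES lines was not counted over all promoters, so these counts have no background beside them. Over all promoters the median distance to the ES mean was -0.037. Nxf3, a member of the nuclear RNA export factor family on the X chromosome, was the only promoter at which iPS cells lay at least 1 above all 4 other lines. It measured 0.08 in E14, -0.45 in V6.5, -0.47 in MEF1, -0.85 in MEF2 and 1.68 in iPS cells (difference from fibroblasts 2.34 ± 0.31, limma adjusted p = 0.00919). Compared with fibroblasts, iPS cells had at least 31.2-fold more Nxf3 RNA. Vmn1r72, a pheromone receptor gene, and Wdr31 were the 2 promoters at which iPS cells lay at least 1 below all others. At the 78 promoters called lower, the iPS value lay above both ES values at 58 (74.4%) and below both at 13 (16.7%), with a median distance to the ES mean of 0.355. Over all promoters it lay above both ES lines at 23.7% and below both at 32.3%. On the separate arrays of the set the share was 71.1% on array 1 and 78.8% on array 2, where 1350 of 7682 and 2248 of 7492 promoters lay above both ES lines. Col3a1 is an example, at 0.64 in iPS cells against -0.52 and -0.71 in the ES lines. In the RNA of the iPS arrays, 11 fibroblast markers summed to 22.4 and 19.7, against 1236 and 615 in fibroblasts and 68.1 and 88.0 in the ES arrays. The iPS sums were thus the lowest of the 3 cell types. The labels call the V6.5 cells of the RNA arrays feeder-dependent and do not say whether feeders were removed, and a part of other cells in the iPS values was not tested.

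Promoters on the X chromosome had more H3K4me3 in iPS cells than in either fibroblast line. The median difference was 0.278 against the male line MEF1 and 0.337 against the female line MEF2, where autosomal promoters on the same array gave 0.113 and 0.062. Relative to those autosomes, X promoters were thus higher by 0.164 and 0.275, and the excess kept its direction under normexp, common spread, quantile normalization and re-centring (0.101 to 0.164 against MEF1, 0.255 to 0.285 against MEF2). Re-centring shifts all promoters of an array alike and could not change this excess. The fibroblast lines also differed from each other here: MEF1 minus MEF2 had a median of 0.075 on X and -0.095 on those autosomes. The iPS excess over MEF1 was thus no larger than the gap between the fibroblast lines on the same measure. Against the ES lines the X medians were 0.306 (E14) and 0.141 (V6.5), beside 0.108 and -0.061 on those autosomes. Of 533 X promoters 19 were clear and higher (3.56%) and 4 clear and lower, and limma called 13 higher and 3 lower. Among the 208 X promoters marked in both fibroblast lines, 78.8% were higher in iPS cells than in both, compared with 36.6% of such autosomal promoters on that array. Among the 290 X promoters marked in neither line the share was 63.4%, compared with 56.5% on those autosomes. Their median differences were 0.159 (MEF1) and 0.350 (MEF2), beside 0.079 and 0.241 on the autosomes. The median H3K27me3 difference from the mean of the fibroblast lines was -0.218 on X, and over those autosomes 0.096. It was not taken against each line alone. In MEF1, MEF2 and iPS cells H3K27me3 measured 0.25, 1.68 and -0.015 at Chic1 and -0.20, 1.05 and -0.30 at Rlim. At Tsx it measured -0.13, 1.85 and 0.37, and at Cdx4 1.59, 2.28 and 1.47. Besides Trap1a, Nxf3 and the microRNA cluster, the called X promoters include Cul4b, a ubiquitin ligase scaffold (-0.20, -0.51 and 1.69), Fmr1nb (-0.04, -0.34 and 1.78), Bex1 (0.19, 0.06 and 1.85), Cdx4, a caudal homeobox gene (-0.04, -0.17 and 1.33), and Eras. Of 4 named housekeeping genes with the largest difference, Ndufa1, Pgk1 and Hprt are X-linked.

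**Figure D5:**
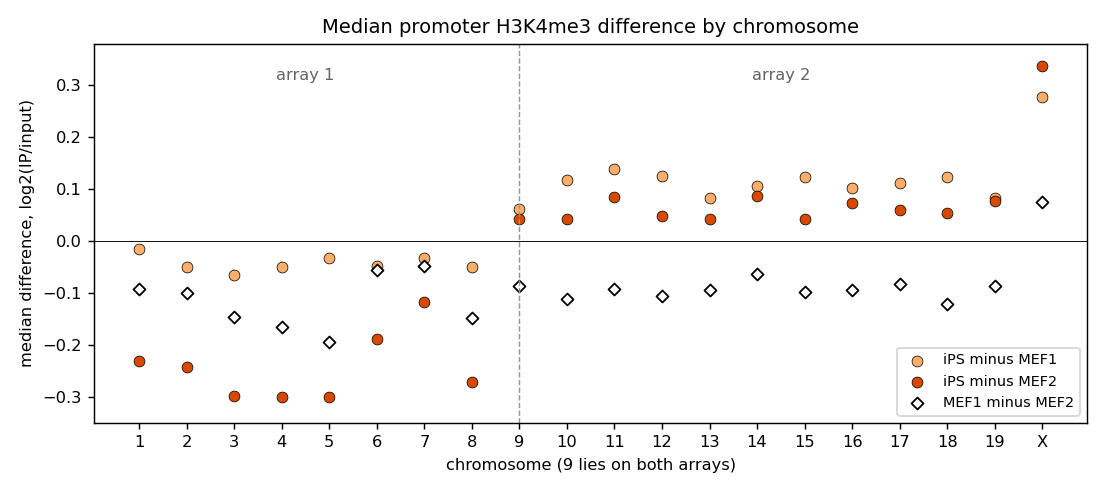
The median H3K4me3 difference per chromosome, in log2(IP/input), is shown for iPS minus MEF1, iPS minus MEF2 and MEF1 minus MEF2 (open diamonds). The dashed line separates chromosomes on array 1 from those on array 2. For the iPS minus MEF1 and iPS minus MEF2 points, the X chromosome stands at 0.278 and 0.337, above every autosome. For the same points, chromosomes 1 to 8, on array 1, lie below the others.

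On the Y chromosome, 4 of 8 promoters were marked in iPS cells and in MEF1. Uty measured 2.37 in MEF1, -0.02 in MEF2 and 1.79 in iPS cells, Eif2s3y 2.31, -0.12 and 1.52, and Ddx3y 1.93, -0.35 and 1.14. The female line MEF2 thus lacked the mark and the iPS line carried it. Kdm5d, a histone demethylase of H3K4me3, measured 2.43 in MEF1, -0.11 in MEF2 and 2.04 in iPS cells, whereas both ES lines were at -0.05 and -0.08. The ES lines carried the mark at the 3 genes above, at 1.098 or more.

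Differences between arrays move with these comparisons. On array 1, which holds chromosomes 1 to 8 and part of chromosome 9, the median autosomal promoter measured 0.853 in iPS cells, 1.04 in MEF1 and 1.15 in MEF2. On array 2 it measured 1.03, 0.998 and 1.09. Calls were 24 higher and 45 lower on array 1 and 65 higher and 33 lower on array 2. Input signal was well above background at 93.6% of probes on array 1 of the iPS set and at 99.4% or more on the other arrays of the mark. The median absolute deviation of probe ratios on arrays 1 and 2 was 0.72 and 0.71 in MEF2. It was 0.58 and 0.53 in MEF1 and 0.49 and 0.56 in iPS cells. The part of this spread in the counts of promoters that differ from MEF2 by 1 or more was not tested. The iPS array 1 was scanned on the day of the MEF2 arrays and the iPS array 2 on the day of the E14 arrays. Within that shared day, iPS cells lay at least 1 above MEF2 at 140 autosomal promoters of array 1 and at least 1 below at 417, against 95 and 140 for MEF1, which was scanned on another day. A fit with scan day as a block left no residual degree of freedom, so day and line cannot be told apart there.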

How the data were processed

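H3K4me3 was measured on 2-colour Agilent promoter arrays, 2 arrays per cell line. The authors' deposited scanner files give intensity per channel (processed signals, background-subtracted and dye-normalized) and a log10 ratio, extracted with Feature Extraction 9.1.3.1 per the file headers. IP and input DNA were whole-genome amplified, per the labels' protocols. No source used here gives the probes' genome build, so promoters are named by gene, and printed sequence is RefSeq's (GRCm38.p6). Probe values are log2(Cy5/Cy3) minus each array's median over non-control probes, leaving out spots flagged non-uniform. A promoter is the mean of its probes within 1000 bp of the start, with at least 3 probes. RNA came as intensity from the authors' value table, turned to log2 minus each array's 75th percentile, 1 probe per gene (that with the highest mean). Each line is 1 replicate. limma 3.58.1 in R 4.3.3 was fitted over all promoters and 5 lines with 2 residual degrees of freedom, with Benjamini-Hochberg adjustment. Limma p-values measure only the spread between these lines or arrays. Array number limits the precision. Named genes are the 15 largest differences each way among promoters called and clear of both fibroblast lines, up to 4 per gene list, the reprogramming factors, and 5 by RNA difference; any other gene was named after its values were seen. Members, lists and rules were chosen with earlier results of these data known. The script was tested on simulated data. There the H3K4me3 fit recovered 0% of promoters moved by 1 log2 unit, 48% at 2, 70% at 3 and 80% at 4. Nanog, Xist and Dcn were not analysed here.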

Additional observations from a re-analysis of the deposited data

How the results depend on the processing

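Counts of called promoters depended on the processing, and directions of called promoters did not turn under any setting run. With a line left out or on single arrays they could not turn, since every called promoter was clear of both fibroblast lines. Promoters called higher by limma numbered 263 with normexp background correction, 1074 with arrays scaled to a common spread, 1242 with quantile normalization, 23 with probes within 500 bp, 0 with the median of the probes (2043 at an unadjusted p under 0.05), 195 re-centred per array, 1 on array 1 alone, 306 on array 2 alone and 310 with iPS and fibroblast lines alone, and 5 to 310 with 1 line left out. Those called lower numbered 1328, 272, 473, 29, 0, 66 (re-centred), 1, 107 and 276 in the same order, and 1 to 276 with 1 line left out. Clear and higher promoters numbered 58 (normexp), 287 (common spread), 76 (array 1), 114 (array 2) and 258 to 341 with 1 line left out. Clear and lower ones numbered 271 (normexp), 92 (common spread), 95 (quantile), 287 (median of probes), 95 (re-centred), 94 (array 1), 50 (array 2) and 203 to 495. Beyond the fibroblast yardstick, 888 (common spread) and 835 (quantile) were higher and 850 (normexp) and 294 (quantile) lower. H3K27me3 calls were 2351 higher and 409 lower with a common spread, and 0 to 262 and 0 to 3 with 1 line left out. RNA calls were 1033 to 4921 higher and 1610 to 4878 lower with 1 array left out, 3679 and 3524 with quantile normalization, and 2758 and 2918 with slide as a block.

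The median of DNA methylation and Polycomb genes became 0.23 (common spread), 0.12 (quantile) and 0.0319 (dim and saturated probes left out), and that of the X inactivation centre -0.11 (normexp). With normexp the differences of uncalled genes turned at Myc (-0.43), Klf4 (-0.043), Cdkn1a (-0.079), Rrm2 (-0.21), Mcm4 (-0.074), Cdk1 (-0.012), Mcm5 (-0.11), Slc38a4 (-0.26), Pgk1 (-0.23) and Chic1 (-0.27), and with probes within 500 bp at Myc (-0.016) and Twist2 (0.018). The cause of these shifts was not tested. No paired analysis was possible because there is 1 iPS line and shared replicate numbers name different lines. Scan day could not be fitted, since it left no residual degree of freedom. Re-centring promoters, single arrays, non-uniform spots kept, and the alternatives for the yardstick and the X chromosome were chosen after seeing the data.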
